A study of Mus musculus with 8 samples.

Results

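Fatty acids reach a heart cell from lipoproteins and albumin, are bound to coenzyme A, pass the mitochondrial membranes as carnitine esters, and are shortened by β-oxidation, whose electrons enter the respiratory chain through the electron transfer flavoprotein. The fetal heart draws mostly on glucose and lactate, and the mouse heart takes up fatty acid oxidation as its main fuel path in the weeks after birth, when milk brings fat. Many genes of the path are targets of the nuclear receptors PPARα and ERRα. The 44 genes described here span that path: uptake at the cell surface and in the cytosol (5 genes), activation and thioesterases (5), the carnitine shuttle (5), malonyl-CoA turnover (2), acyl-CoA dehydrogenases (7), the later steps of the β-oxidation spiral (6), auxiliary enzymes for unsaturated fatty acids (4), electron transfer (3), the lipid droplet (5), and the uncoupling proteins Ucp2 and Ucp3. They were listed by name, with earlier results of these data known, and are 44 of the 22909 genes that the array's probes named through their RefSeq accessions. The brightest probe stood for each gene. For 43 of the 44 that probe was well above background on all 8 arrays and was tested. Acsl6, an acyl-CoA synthetase known mainly from brain, was not well above background on any array and was not tested.

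The arrays compared ventricle RNA (left ventricle, per the series' design text) of mice carrying the homozygous ΔK210 deletion in cardiac troponin T (Tnnt2 ΔK210/ΔK210, called KI), a knock-in model of inherited dilated cardiomyopathy, with that of wild-type mice (WT), at 1 week of age and at birth. Each of the 4 groups, KI and WT at 1 week and KI and WT at birth, had 2 arrays. Ventricles of 3 animals were combined per the labels, and it is not stated that a group's arrays hold different pools, so errors and p-values measure array-to-array spread, which may be technical. The mutation is present in the whole animal, and no treatment was given per the labels. Levels are log2 signal minus the array's 75th percentile, so a level of 0 is that percentile. Levels of different genes come from different probes and are not compared with each other.

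The deposited records disagree on which 1-week array is which sample, and the 4 arrays are called A to D for that reason. Array A was WT in both records. By the value table, KI were arrays B and C and WT were arrays A and D. By the scanner files, KI were arrays C and D and WT were arrays A and B. The birth arrays carried the same names in both. A change with age taken over both genotypes rests on all 4 arrays of each age and so has the same size in both records. Every genotype result at 1 week is given for the value table first and for the scanner files beside it. All 1-week arrays lay in one row of the slide and all birth arrays in the other, so age and slide row cannot be told apart. Among the birth arrays KI took columns 3 and 4 and WT columns 1 and 2, so slide position and genotype cannot be told apart either. Arrays A, B, C and D took columns 1, 2, 3 and 4, so the same holds at 1 week by the scanner files. By the value table KI took columns 2 and 3 at 1 week and WT columns 1 and 4.

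The share of probes well above background on an array was 60.7% to 64.7%. The unscaled 75th percentile was 465 on array D and between 621 and 732 on the other 7, and D stood apart on the second principal component, which held 13.0% of the variance. Ventricular cardiomyocyte markers (Myl2, Myh6, Tnni3 and others) were well above background on all 8 arrays, 9 of 9. Atrial markers were lowest on array A, where their summed linear signal was 48.2 times the 75th percentile, against 291 to 356 on arrays B, C and D and 310 to 412 at birth. By the age test given below, 4 of 6 fibroblast markers were higher and 1 was lower at 1 week. Of endothelial markers 3 of 6 were higher, and of macrophage markers 4 of 6. That test called 15.3% of all genes higher and 13.9% lower. Summed linear signal at 1 week was 206 to 292 for fibroblast markers, against 107 to 129 at birth. It was 39.7 to 54.9 against 33.0 to 34.6 for endothelial and 7.10 to 9.53 against 4.45 to 5.53 for macrophage markers. In RNA of whole ventricle, fewer cells of a type and less RNA per cell cannot be told apart. The part of cell mix in the results below was not tested, except where a value is given.

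Over both genotypes, 9 of the 43 members were higher and 4 were lower at 1 week than at birth (limma, Benjamini-Hochberg adjusted p below 0.05). Of all 15744 genes tested, 15.3% were higher and 13.9% were lower. The median change over the members was 0.02 on the log2 scale (-0.07 to 0.09 with an array left out) and over all genes it was -0.01. The genes that rose were Decr1, Plin5, Mgll, Ech1, Ucp2, Ucp3, Cpt2, Acadvl and Etfb, and those that fell were Acot1, Cpt1a, Angptl4 and Acot2. The remaining 30 lay between Ehhadh, with -0.42, and Fabp3, with 0.33, and did not pass. All 4 arrays at 1 week lay above all 4 at birth for 8 members (background 17.0%), and all 4 lay below for 5 members (background 18.6%). The counts are near the background in both directions. The same shares of all genes, 15.3% higher and 13.9% lower, stand beside the counts by role below. Those counts describe single genes and are not results about a role. With the scanner-file names the sizes were the same and 7 members were higher and 3 lower, all among the 13 (background 15.6% and 14.8%). Ucp2 (adjusted p = 0.0784), Ucp3 (0.0941) and Angptl4 (0.081, limma) missed the threshold there.

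**Figure D1:**
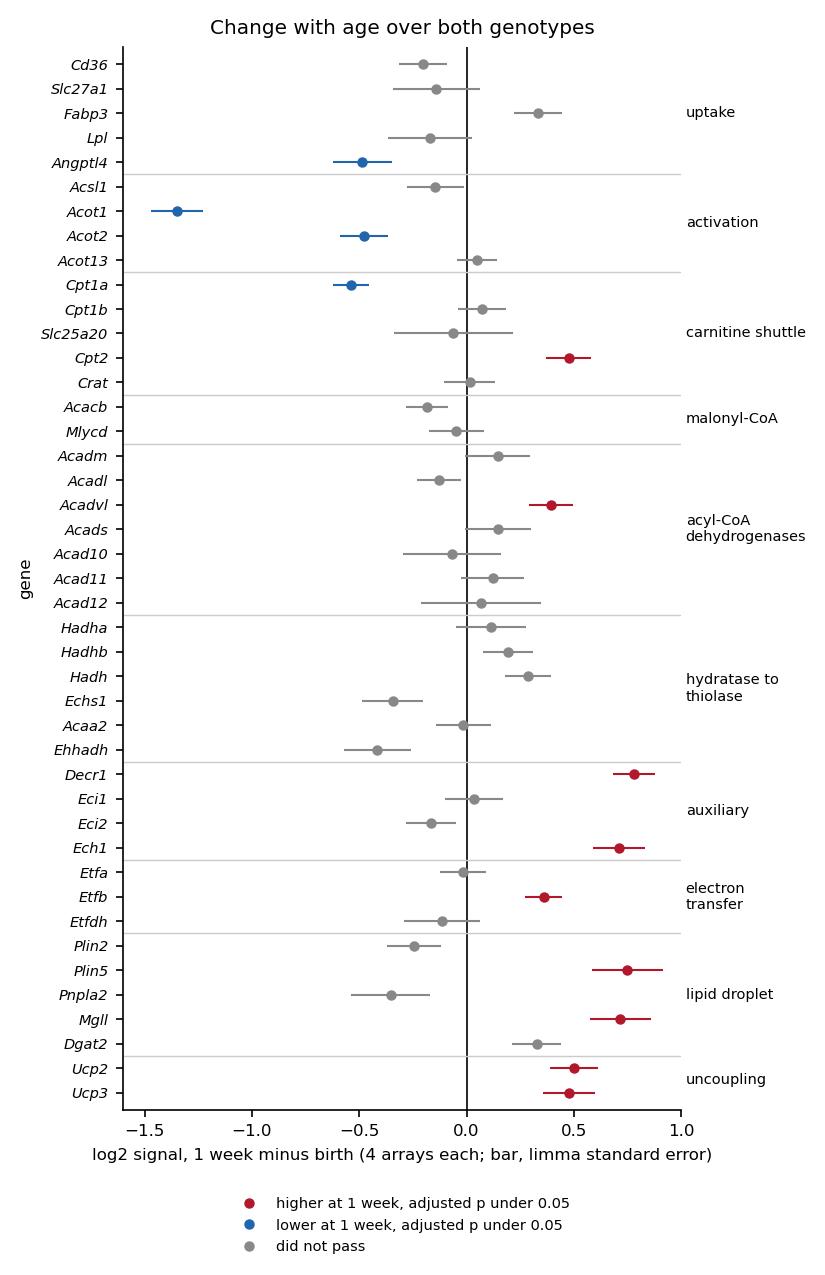
Change of each of the 43 tested members between the ages, as log2 signal at 1 week minus that at birth over both genotypes, with the limma standard error as bars (4 arrays each). Red points are the 9 members that rose and blue points the 4 that fell, and Acot1 is the farthest from 0, at -1.35.

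Scaling mattered to the balance of the calls. When each array was centred on its median in place of its 75th percentile, the median change over all genes moved to -0.12, by -0.10, and calls over all genes were 1692 higher and 2494 lower, against 2416 higher and 2189 lower. Among the members 4 were then higher (Decr1, Ech1, Mgll and Plin5) and 5 were lower (Acot1, Acot2, Angptl4, Cpt1a and Ehhadh). Acot1, Cpt1a, Decr1, Ech1 and Mgll passed under all 21 alternatives tried, and none of the 13 changed sign under any of them. Single arrays moved the counts as well. They were 4 higher and 2 lower without array B or without the second WT array at birth, 5 and 3 without the first KI array at birth, and 7 and 2 without the second KI array at birth.

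A search of promoters gave the sequence setting of these genes. RefSeq windows of 300 bases on build GRCm38.p6, 250 before the annotated start and 50 after it, were at hand for 36 members (43 windows, since some genes have several starts). The direct repeat AGGTCANAGGTCA, the form known to be bound by PPARs with RXR, was searched on both strands with up to 2 mismatches. It was found in 6 of the 43 windows (14.0%), against 3.86% of all 32851 windows, and no member matched it exactly. The 6 genes were Cd36, Ucp3, Plin2, Echs1, Etfa and Slc25a20. Of the 13 members that changed with age 11 had a window, and 1 of these, Ucp3, held a match. The ERRα element TNAAGGTCA, whose AGGTCA part is shared with the repeat, was in 1 of 43 windows (2.33%), that of Acsl6, against 1.28% of all windows. A match is a run of letters and not a bound site. Ucp3, Cd36 and Plin2 are printed whole as 1 gene each of uncoupling, uptake and the droplet that held a match, with the match in capitals, each on the strand of its gene, from chr7:100472741-100473040 (plus strand), chr5:17835847-17836146 (minus strand) and chr4:86670010-86670309 (minus strand).
Ucp3: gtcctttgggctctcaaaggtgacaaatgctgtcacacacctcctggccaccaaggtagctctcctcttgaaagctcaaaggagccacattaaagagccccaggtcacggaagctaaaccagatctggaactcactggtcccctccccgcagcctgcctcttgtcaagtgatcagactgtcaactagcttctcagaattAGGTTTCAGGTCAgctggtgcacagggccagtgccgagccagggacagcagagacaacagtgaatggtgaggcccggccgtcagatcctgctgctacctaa
Cd36: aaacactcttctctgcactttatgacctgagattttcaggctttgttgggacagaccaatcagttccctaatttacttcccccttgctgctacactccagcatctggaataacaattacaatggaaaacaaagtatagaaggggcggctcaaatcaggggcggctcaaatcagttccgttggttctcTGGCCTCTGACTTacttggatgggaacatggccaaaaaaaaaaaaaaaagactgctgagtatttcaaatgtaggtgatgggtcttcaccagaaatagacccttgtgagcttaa
Plin2: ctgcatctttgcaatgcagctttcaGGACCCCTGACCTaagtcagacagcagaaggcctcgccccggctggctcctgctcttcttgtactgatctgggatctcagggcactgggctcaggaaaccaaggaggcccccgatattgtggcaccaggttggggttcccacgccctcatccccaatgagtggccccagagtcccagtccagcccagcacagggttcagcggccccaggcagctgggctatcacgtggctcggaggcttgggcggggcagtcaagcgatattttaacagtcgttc
The match began 51 bases before the start in Ucp3, 63 in Cd36 and 225 in Plin2. In the other three windows the match was AGGTCACGGGTCC in Echs1, 83 bases before the start, TTACCTTTGCCCT in Etfa, 77 bases before it, and AGGTGAAAGGTCG in Slc25a20, 6 bases after it. The matches of Cd36, Plin2 and Etfa lie on the opposite strand of the gene.

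Among the uptake genes only Angptl4 passed, with a fall, where 13.9% of all genes tested were lower. The fatty acid carriers themselves did not pass. Angptl4, a secreted inhibitor of lipoprotein lipase and a PPAR target, had levels of 3.64, 3.66, 3.91 and 4.32 on arrays B, C, A and D at 1 week, against 4.60 and 4.28 in KI and 4.46 and 4.14 in WT at birth. Array D lay inside the range at birth and the other three 1-week arrays lay below it. The change was -0.49 ± 0.14 (adjusted p = 0.0394, limma; range over 21 alternatives 0.0207 to 0.207, 7 of them past the threshold). Fabp3, the fatty acid binding protein of the cardiomyocyte cytosol, had levels of 7.63, 7.60, 7.75 and 7.87 on arrays B, C, A and D, against 7.38 and 6.98 in KI and 7.60 and 7.55 in WT at birth. On this probe the second KI array was the lowest at birth, and the change of 0.33 ± 0.11 did not pass (adjusted p = 0.0637, limma). A second Fabp3 probe changed by 0.95, and the gene did pass with the mean of both probes, with normexp background correction, and without the first KI array at birth. Cd36, the sarcolemmal fatty acid translocase whose promoter is shown above, had levels of 3.86, 4.18, 4.06 and 3.88 on arrays B, C, A and D, against 4.09 and 4.30 in KI and 4.26 and 4.14 in WT at birth. The ages overlapped, and the change was -0.20 ± 0.11 (adjusted p = 0.216, limma). Lpl, the lipase that frees fatty acids from lipoproteins at the vessel wall, and Slc27a1, a fatty acid transport protein, changed by -0.17 and -0.14 and did not pass.

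Acot1 showed the largest change of all 43 members. Acot1, a cytosolic thioesterase that releases long-chain fatty acids from coenzyme A and a known PPARα target, had levels of 3.35, 3.36, 3.46 and 3.25 on arrays B, C, A and D at 1 week, against 4.44 and 4.88 in KI and 4.80 and 4.70 in WT at birth. No 1-week array came near any birth array. It fell by 1.35 ± 0.12 on the log2 scale, which is 2.55-fold (adjusted p = 0.000513, limma; 7.19e-05 to 0.00424 over 21 alternatives). Acot2, the mitochondrial thioesterase encoded next to Acot1 on chromosome 12, had levels of 2.94, 3.09, 3.26 and 3.35 on arrays B, C, A and D, against 3.49 and 3.89 in KI and 3.55 and 3.62 in WT at birth. The ages did not overlap, though array D and the first KI array at birth lay close together. It fell by 0.48 ± 0.11 (adjusted p = 0.0212, limma; 14 of 21 alternatives past the threshold). The coding sequences of these paralogs are near-identical, and how far each probe also binds the other's RNA was not tested. Acot13, a thioesterase of mitochondria, had levels of 6.64, 6.77, 6.81 and 6.65 on arrays B, C, A and D at 1 week, all inside its range at birth, and changed by 0.05. Acsl1, the main long-chain acyl-CoA synthetase of heart, changed by -0.14, and neither gene passed.

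In the carnitine shuttle 1 gene of 5 fell, 1 rose, and the muscle form of the entry enzyme did not pass. Cpt1a, the liver form of carnitine palmitoyltransferase 1 and the form that the fetal heart is known to use, had levels of 1.92, 1.90, 2.05 and 2.07 on arrays B, C, A and D at 1 week, against 2.54 and 2.55 in KI and 2.59 and 2.42 in WT at birth. The ages were well apart and the arrays of each age close together. It fell by 0.54 ± 0.08, or 1.45-fold (adjusted p = 0.00412, limma; 0.00267 to 0.0306 over 21 alternatives). Cpt1b, the muscle form, had levels of 4.28, 4.52, 4.38 and 4.53 on arrays B, C, A and D, against 4.25 and 4.46 in KI and 4.48 and 4.23 in WT at birth. Its ages overlapped fully, with a difference of 0.07 ± 0.11 that took the other sign (-0.03) when arrays were centred on the median.

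Cpt2, the enzyme of the inner membrane that turns acylcarnitine back into acyl-CoA, changed by 0.48 ± 0.10 (adjusted p = 0.0162, limma). The 1-week arrays stood at 4.72 to 5.07 and the birth arrays at 4.27 to 4.48. A second, dimmer Cpt2 probe moved the other way, by -0.20. On it arrays A and B (-0.66 and -0.88) lay above all birth arrays, and arrays C and D (-2.20 and -3.04) lay below them. With the mean of both probes the change was 0.14 (adjusted p = 0.771, limma), so the call rests on the brightest probe. Arrays C and D, the KI pair by the scanner files, were also the lowest of all arrays on further dimmer probes. These were the dimmer probes of Crat, Mlycd, Acad11, Acsl1, Eci2 and Hadhb, both dimmer probes of Lpl, and the dimmest of Etfa. The dimmer probes of Acacb, Etfb, Fabp3, Mgll, Plin2, Plin5 and Ucp2 and the middle probe of Etfa did not have this order. The dimmer Echs1 probe was highest on both, and the cause was not tested. Slc25a20, the carnitine-acylcarnitine carrier, had levels of 1.53, 1.25, 1.65 and 0.30 on arrays B, C, A and D, against 1.15 and 1.25 in KI and 1.38 and 1.20 in WT at birth. Array D alone was far below the rest, and the change of -0.06 ± 0.28 did not pass. Crat, which exchanges acetyl groups between carnitine and coenzyme A, changed by 0.02. Of the malonyl-CoA genes neither passed. Acacb, the acetyl-CoA carboxylase whose product inhibits the entry enzyme, had levels of 4.09, 4.36, 4.18 and 4.24 on arrays B, C, A and D, against 4.34 and 4.37 in KI and 4.53 and 4.37 in WT at birth. One 1-week array overlapped the birth range, the change was -0.19 ± 0.10, and the second Acacb probe moved by 0.39. Mlycd, which breaks malonyl-CoA down, changed by -0.05.

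Among the acyl-CoA dehydrogenases 1 of 7 rose. Acadvl, which takes the longest chains, had levels of 6.81, 6.98, 7.18 and 7.05 on arrays B, C, A and D at 1 week, against 6.58 and 6.68 in KI and 6.73 and 6.46 in WT at birth. All 1-week arrays lay above the birth arrays, with array B closest to them, and the change was 0.39 ± 0.10 (adjusted p = 0.0292, limma; 10 of 21 alternatives past the threshold). Acadm, Acads and Acadl, for medium, short and long chains, changed by 0.14, 0.15 and -0.13, and Acad10, Acad11 and Acad12, less studied members of the family, by -0.07, 0.12 and 0.07. None of these passed. Acad10 stood at -2.13, -2.79, -2.14 and -2.01 on arrays B, C, A and D at 1 week, with array C the lowest.

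The later steps of the spiral gave no call among 6 genes, with changes of both signs. Ehhadh, a peroxisomal hydratase and dehydrogenase, had levels of -1.54, -1.81, -1.47 and -1.80 on arrays B, C, A and D at 1 week, against -1.45 and -1.25 in KI and -1.40 and -0.86 in WT at birth. The 1-week arrays lay just below the birth arrays, and the change of -0.42 ± 0.16 missed the threshold (adjusted p = 0.0882, limma), as did that of Echs1, the short-chain enoyl-CoA hydratase, at -0.34 ± 0.14 (adjusted p = 0.111, limma). Echs1 stood at 4.32, 4.19, 4.39 and 3.78 on arrays B, C, A and D, against 4.40 and 4.46 in KI and 4.61 and 4.59 in WT at birth. Array D was the lowest of them and array A almost reached the birth arrays. The second Echs1 probe moved the other way, by 0.24. Of the 18 members with several probes 7 had probes of unlike sign with age (Acacb, Acad11, Cpt2, Crat, Echs1, Hadhb and Plin2), and of these Cpt2 alone was among the 13 called. Hadh, the short-chain hydroxyacyl-CoA dehydrogenase, was above all birth arrays on all 1-week arrays and did not pass (0.29 ± 0.11, adjusted p = 0.0876, limma). Hadha and Hadhb, the α and β subunits of the trifunctional protein and neighbours on chromosome 5, changed by 0.11 and 0.19. Hadha stood at 3.05, 2.85, 3.33 and 2.71 on arrays B, C, A and D at 1 week, spanning its range at birth. Acaa2, the mitochondrial thiolase, changed by -0.02, and it did not pass, nor did Hadha or Hadhb.

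The auxiliary enzymes held a pair of the steadiest rises. Decr1, the mitochondrial 2,4-dienoyl-CoA reductase needed for polyunsaturated chains, had levels of 6.11, 6.06, 6.38 and 6.18 on arrays B, C, A and D at 1 week, against 5.27 and 5.37 in KI and 5.60 and 5.36 in WT at birth. Every 1-week array lay well above every birth array. It rose by 0.78 ± 0.10, or 1.72-fold (adjusted p = 0.00193, limma; 0.000639 to 0.0148 over 21 alternatives). Ech1, an isomerase that shifts the double bonds of dienoyl-CoA, stood between 5.61 and 6.02 at 1 week and between 4.92 and 5.29 at birth, and rose by 0.71 ± 0.12 (adjusted p = 0.00638, limma). Eci1 and Eci2, the enoyl-CoA isomerases for monounsaturated chains, changed by 0.03 and -0.17 and did not pass.

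Etfb, the β subunit of the electron transfer flavoprotein, was the single call among its 3 genes. It had levels of 7.14, 7.29, 7.20 and 7.28 on arrays B, C, A and D at 1 week, against 6.82 and 6.84 in KI and 6.97 and 6.84 in WT at birth. The ages did not overlap, and it rose by 0.36 ± 0.09 (adjusted p = 0.0223, limma; 13 of 21 alternatives past the threshold). Its second probe changed by 0.15, and there the ages overlapped, with array D (5.01) below all birth arrays. With the mean of both probes the change was 0.25 and did not pass (adjusted p = 0.102, limma). Etfa, the α subunit, changed by -0.02, and Etfdh, the oxidoreductase that passes the electrons to ubiquinone, by -0.11. Etfdh had levels of 5.31, 5.08, 5.51 and 4.72 on arrays B, C, A and D, against 5.19 and 5.26 in KI and 5.38 and 5.25 in WT at birth. As with Slc25a20 and Echs1, array D was the lowest of the 8.

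At the lipid droplet 2 of 5 genes rose. Plin5, the droplet coat protein of oxidative tissue that links droplets to mitochondria, had levels of 4.55, 4.37, 4.83 and 4.37 on arrays B, C, A and D at 1 week, against 3.39 and 3.95 in KI and 3.81 and 3.97 in WT at birth. All 1-week arrays lay above the birth arrays, of which the first KI array was the lowest. It rose by 0.75 ± 0.16, or 1.68-fold (adjusted p = 0.016, limma; 19 of 21 alternatives past the threshold), and its second probe moved by 0.65. Mgll, the monoacylglycerol lipase of the last step of fat breakdown, stood between 3.83 and 4.56 at 1 week and between 3.34 and 3.61 at birth and rose by 0.72 ± 0.14 (adjusted p = 0.0115, limma). Its second probe moved by 0.75. Dgat2, which makes triacylglycerol, had levels of 4.16, 3.91, 4.49 and 4.27 on arrays B, C, A and D, against 3.61 and 3.92 in KI and 3.98 and 4.01 in WT at birth. Array C lay inside the birth range and the change of 0.33 ± 0.12 did not pass (adjusted p = 0.0728, limma). Plin2, a droplet coat protein of most tissues, and Pnpla2, the adipose triglyceride lipase, changed by -0.25 and -0.35 and did not pass.

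Both uncoupling proteins rose in the value-table record. Ucp3, an inner-membrane carrier of muscle and brown fat whose level is known to follow fatty acid supply, had levels of 0.88, 0.59, 1.43 and 1.20 on arrays B, C, A and D at 1 week, against 0.27 and 0.55 in KI and 0.77 and 0.60 in WT at birth. Arrays A, B and D stood above all birth arrays, whereas array C lay among them. The change was 0.48 ± 0.12 (adjusted p = 0.0268, limma; 0.00807 to 0.253 over 21 alternatives, 10 of them past the threshold). Ucp2, its widely expressed neighbour on chromosome 7, had levels of 0.23, 0.02, 0.63 and 0.68 on arrays B, C, A and D, against -0.37 and -0.03 in KI and 0.06 and -0.10 in WT at birth. Arrays A and D were again the highest, and array C lay inside the birth range. The change was 0.50 ± 0.11 (adjusted p = 0.0173, limma; 12 of 21 alternatives past the threshold), and the second probe moved by 0.48.

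**Figure D2:**
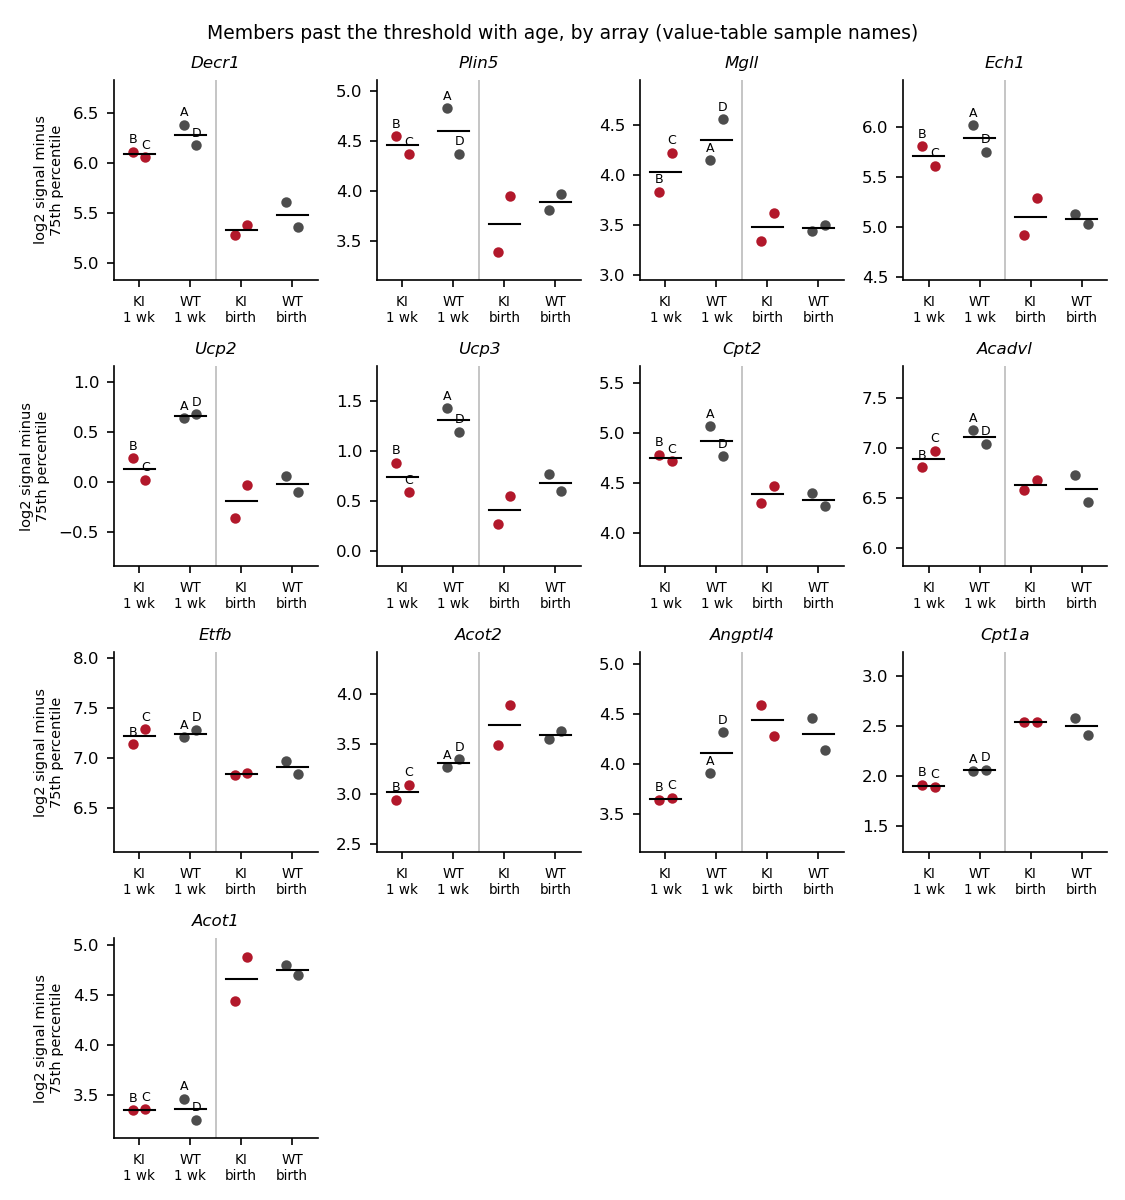
Levels on each array (log2 signal minus the array's 75th percentile) of the 13 members that passed with age, with the samples named as in the value table and letters marking the 1-week arrays. Lines are means of 2 arrays, every panel spans 2 log2 units, and array A lies beyond all birth arrays in the direction of the change in each of the 13. The calls themselves rest in part on array A.

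Fat tissue also expresses many of these genes, and its markers were set beside the members. Of 13 adipocyte markers, 12 were well above background on arrays B, C and D, against 7 on array A and 7 on each birth array. The 5 that made the difference were Adipoq, Cfd, Cidec, Plin1 and the brown fat protein Ucp1. Their summed linear signal was 1.64, 2.16 and 6.05 times the 75th percentile on arrays B, C and D, against 0.04 on array A and on each birth array. These 5 were picked as below background at birth and above it at 1 week, so their contrast with birth follows from the pick. Summed over all 13 markers the signal was 130, 180, 133 and 191 on arrays B, C, A and D, against 127 to 143 at birth. Most of this sum came from the brightest marker, Fabp4. Its levels were 6.73, 7.27, 6.81 and 7.32 on arrays B, C, A and D, against 6.76 to 6.99 at birth. Of the markers outside the 5, Slc36a2, Cidea and Lep on array A lay above all birth arrays. Pparg lay just below them, and the rest lay inside the birth range. Array A, on which these 5 were at background, lay beyond all 4 birth arrays in 13 of the 13 members called with age. Array A was itself among the 1-week arrays that gave those calls, so this agreement was in part fixed by the choice of members. On array A the differences from the birth mean were 0.34 to 1.05 for the 9 that rose and -1.24 to -0.37 for the 4 that fell. The part of fat in the members' values on arrays B, C and D was not tested.

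**Figure D3:**
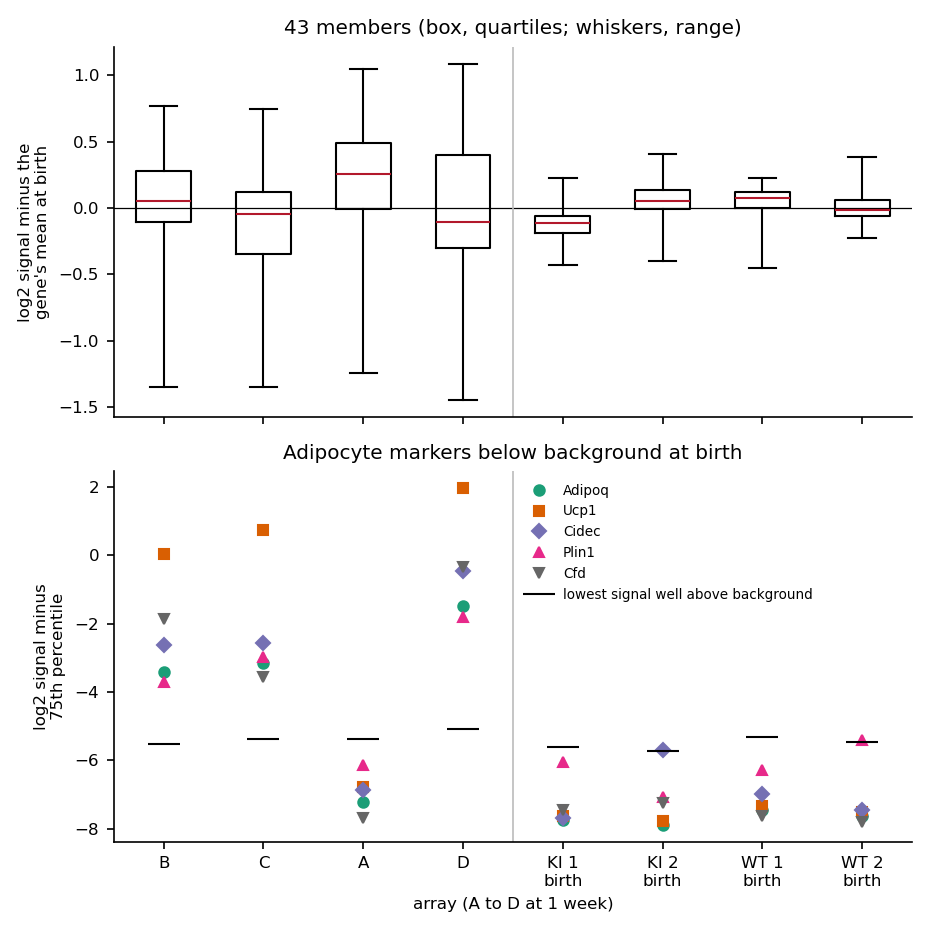
Top, the 43 members on each array as log2 signal minus the gene's mean at birth; bottom, levels of the 5 adipocyte markers that were at background at birth, with dashes for the lowest signal well above background. The median of the members is highest on array A (0.25), where the 5 markers lie below the dash.

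The age change was also taken within each genotype, which rests on 2 arrays against 2. In KI 1 member was higher and 3 were lower at 1 week (background 5.93% and 4.62% of all genes), and in WT 7 were higher and 2 lower (10.7% and 8.63%). Decr1 rose in both (0.76 ± 0.14 in KI and 0.80 ± 0.14 in WT), and Acot1 (-1.31 ± 0.17 and -1.39 ± 0.17) and Cpt1a (-0.63 ± 0.12 and -0.44 ± 0.12) fell in both. Acot2 fell in KI by 0.67 ± 0.16, against -0.28 ± 0.16 in WT, which did not pass. Ech1, Mgll, Ucp2, Cpt2, Ucp3 and Acadvl passed in WT and not in KI, with changes of 0.52 to 0.88 in WT and 0.27 to 0.61 in KI. With the scanner-file names the counts were 3 higher and 2 lower in KI (background 8.88% and 6.63%) and 3 and 2 in WT (6.94% and 5.79%). By that record Decr1, Etfb and Mgll were higher and Acot1 and Cpt1a lower in KI, and Cpt2, Decr1 and Ech1 were higher and Acot1 and Cpt1a lower in WT. Mgll then passed in KI (0.91 ± 0.18) and not in WT (0.52 ± 0.18), Acot2 passed in neither (-0.47 ± 0.19 in KI and -0.48 ± 0.19 in WT), and Ucp2, Ucp3 and Acadvl passed in neither. The WT count of 7 was not kept under any left-out array, which gave 0 to 4, and it was 1 with arrays centred on the median, where calls over all genes were 1005 higher and 1755 lower, against 1679 and 1358.

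Whether the age change itself differed between genotypes was tested as their difference. None of the 43 members passed (limma, 0.00635% of all genes did, 1 gene), and none had an unadjusted p below 0.05. The largest values were -0.60 for Angptl4 and -0.57 for Acad10, and 0.51 ± 0.55 for Slc25a20. With the scanner-file names none passed either (background 0%), and 1 member, Acadm, had an unadjusted p below 0.05 (-0.42 ± 0.16, adjusted p = 0.75). A pass in WT and a miss in KI is therefore not shown to be a difference between them.

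**Figure D4:**
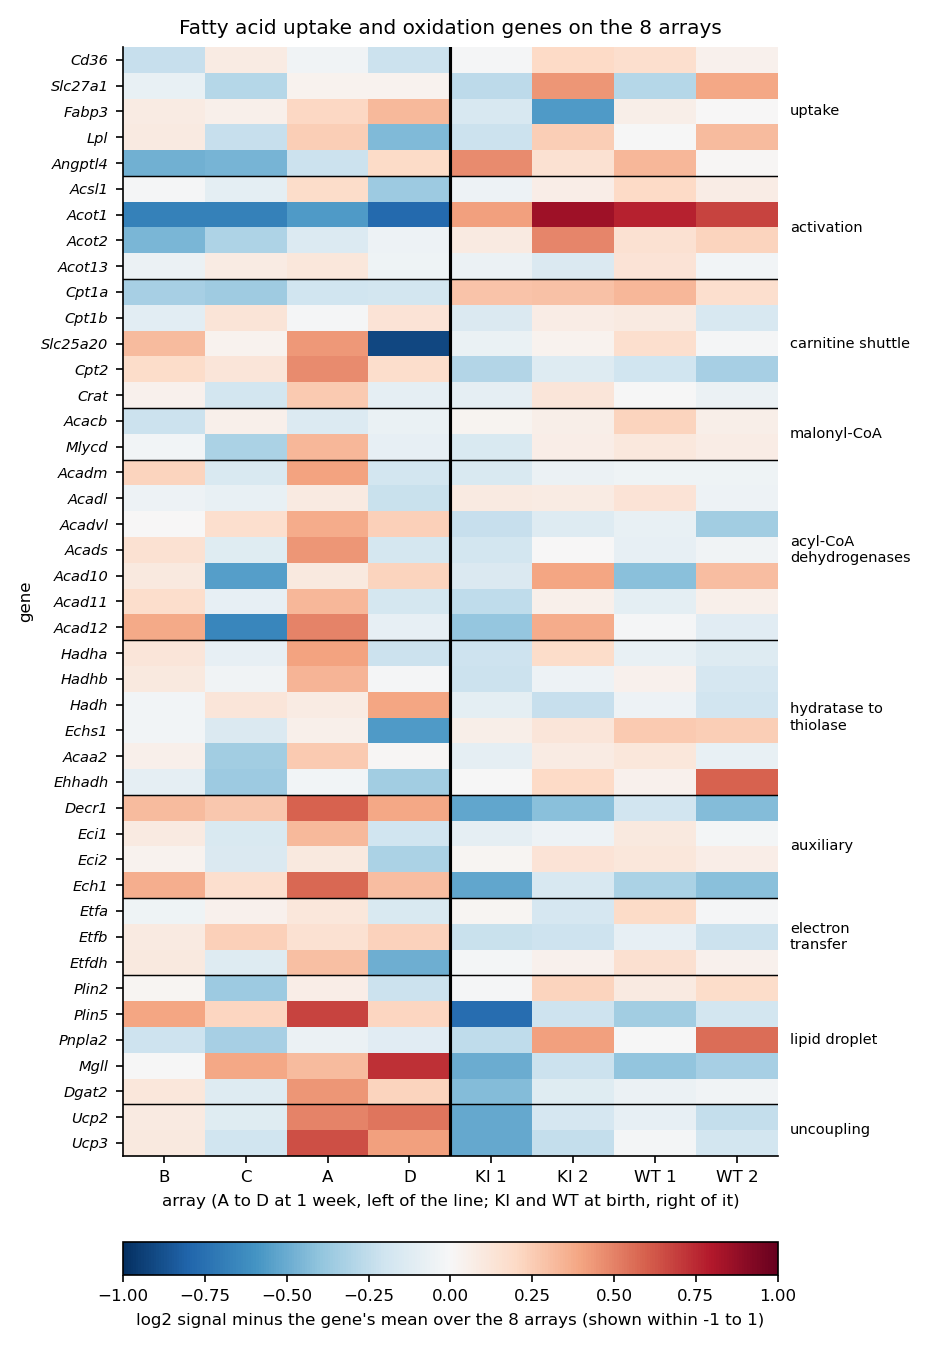
All 43 tested members on the 8 arrays, grouped by role, with colour for log2 signal minus the gene's mean over the arrays (1-week arrays left of the line, birth arrays right). Acot1, Cpt1a, Decr1 and Ech1 separate the ages on every array, while Slc25a20 stands out on array D alone.

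At birth KI and WT did not differ in any member by the test (limma, 0 of 43; background 0.0381%, 6 genes, and 0% with the scanner-file names in the fit). The median difference over the members was -0.07, against 0.00 over all genes, and without the first KI array it was 0.04. By the test 1 member had an unadjusted p below 0.05. In 9 members both KI arrays lay below both WT arrays and in 0 they lay above (background 16.4% and 16.0%). Fabp3, with the levels given above, had the smallest p: KI minus WT was -0.39 ± 0.16 (adjusted p = 1.00, limma), and without the second KI array it was -0.19. On its second probe the difference was -0.96 and the first KI array was the lowest, at 5.77 against 6.99 on the second KI array. Ucp3 (-0.27 ± 0.17) and Dgat2 (-0.23 ± 0.16) were lower in KI by their means, with no overlap between the pairs of arrays, and did not pass. Acot13 had levels of 6.63 and 6.54 in KI, against 6.83 and 6.67 in WT, a difference of -0.16 ± 0.13. The KI arrays lay just below the WT arrays. On the higher side, Angptl4 (0.14 ± 0.20), Acot2 (0.10 ± 0.16), Acad10 (0.18 ± 0.32) and Hadha (0.09 ± 0.23) overlapped between the genotypes. Acad10 stood at -2.38 and -1.84 in KI, against -2.65 and -1.92 in WT, and Hadha at 2.72 and 3.11 in KI, against 2.85 and 2.79 in WT. The spread between arrays of one genotype exceeded these differences. The first KI array held the lowest birth value of 31 of the 43 members, a count not made over all genes. The scanner software graded that array for evaluation where it graded the other 7 as in range.

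At 1 week no member passed between KI and WT in either record. With the value-table names 0 of 43 passed (limma; background 0.0445%, 7 genes), 2 had an unadjusted p below 0.05, and the median difference was -0.14, against 0.00 over all genes. In 11 members both KI arrays lay below both WT arrays, and in 0 above (background 20.2% and 18.2%). By the scanner files 0 of 43 passed (background 0%), 10 had an unadjusted p below 0.05, and the median difference was -0.23, against 0.02 over all genes. There 22 members were lower in KI with no overlap and 5 higher (background 18.9% and 21.9%). In each record 33 of 43 members were lower in KI by their means, and 25 were lower in both. Higher in KI were 23.3% of the members in each record, against 50.1% of all genes by the value table and 53.8% by the scanner files. Array A, which both records call WT, held the highest 1-week value of 31 of the 43 members and the lowest of 0. The same count over all genes was not made. Without array A the median difference was -0.02 by the value table and -0.10 by the scanner files. With arrays centred on the median it was -0.03 over the members and 0.11 over all genes, by the value table. The scaling thus moved members and all genes alike.

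Ucp3 and Ucp2 had the smallest p by the value table. Ucp3 stood at 0.88 and 0.59 in KI, against 1.43 and 1.20 in WT, a difference of -0.58 ± 0.17 (adjusted p = 0.585, limma), and Ucp2 at 0.23 and 0.02 in KI, against 0.63 and 0.68 in WT, a difference of -0.53 ± 0.16 (adjusted p = 0.592, limma). Neither gene's genotypes overlapped there. By the scanner files the differences were -0.27 ± 0.26 for Ucp3 and -0.09 ± 0.26 for Ucp2, and the genotypes overlapped. Both took the opposite sign in 2 of 22 alternatives.

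For Angptl4 and Slc25a20 the direction depended on the record. Angptl4 stood at 3.64 and 3.66 in KI, against 3.91 and 4.32 in WT, by the value table (-0.46 ± 0.20), and the difference was 0.22 ± 0.25 by the scanner files. Slc25a20 was at 1.53 and 1.25 in KI, against 1.65 and 0.30 in WT, by the value table (0.41 ± 0.39), while by the scanner files it was at 1.25 and 0.30 in KI, against 1.65 and 1.53 in WT (-0.81 ± 0.29). Array D carried the change of sign: without D the difference was -0.26 by the value table and -0.34 by the scanner files. None of these passed. Dgat2 was lower in KI in both records, at -0.34 ± 0.16 by the value table and -0.23 ± 0.19 by the scanner files, kept its sign in all 22 alternatives, and did not pass in any. Echs1 (0.17 ± 0.20), Etfdh (0.08 ± 0.25) and Cd36 (0.05 ± 0.16), the next smallest in p on the higher side by the value table, gave -0.37 ± 0.15, -0.51 ± 0.16 and 0.07 ± 0.15 by the scanner files. By those files the smallest p was that of Acadm, the medium-chain dehydrogenase, at -0.48 ± 0.11 (adjusted p = 0.393, limma). Both KI arrays of that record (5.63 and 5.60) lay below both WT arrays, of which array A was the higher at 6.18, and with the value-table names the difference was -0.08 ± 0.22.

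**Figure D5:**
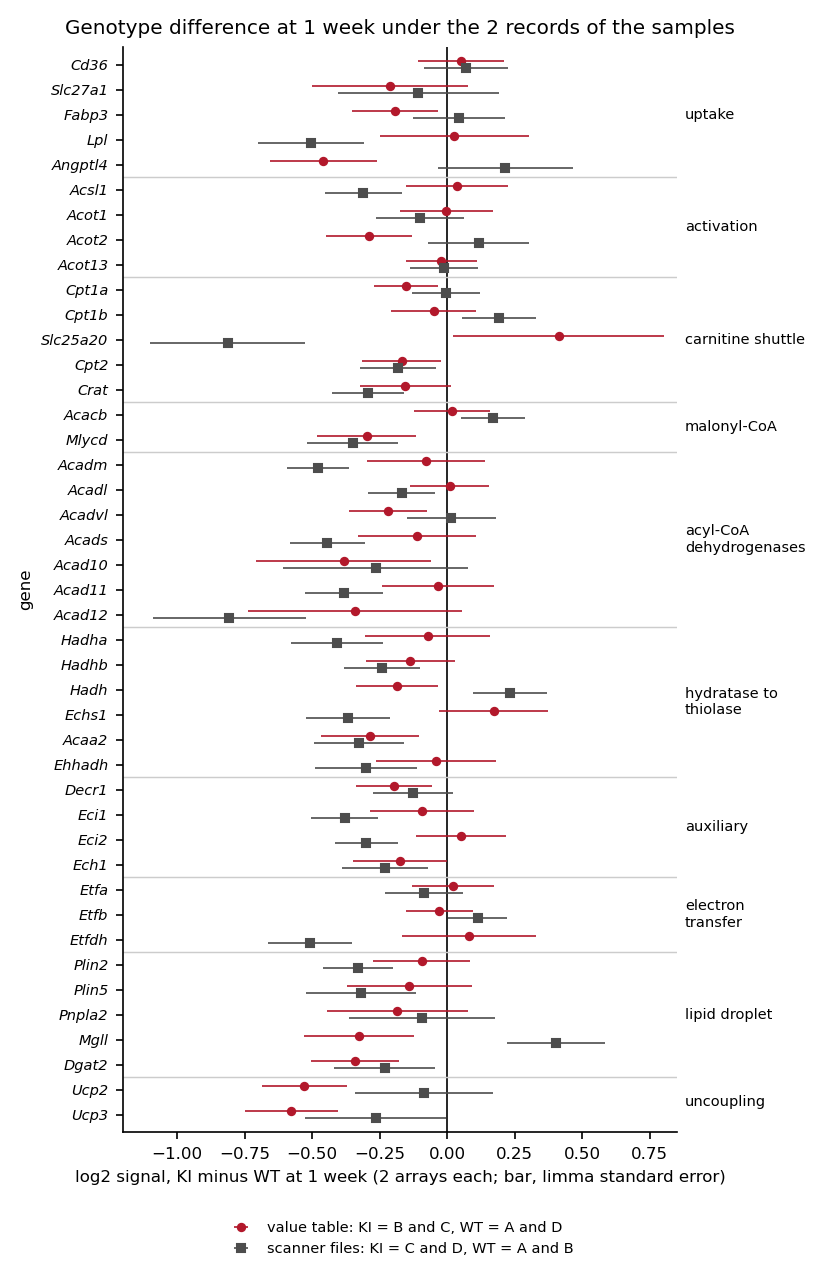
KI minus WT at 1 week for the 43 tested members, in log2 signal with limma standard errors (2 arrays each). Red circles use the value-table names and grey squares the scanner-file names. Under each, 33 of 43 lie left of 0, where 50.1% and 53.8% of all genes were higher in KI. The side changes for 16 members, among them Slc25a20, Angptl4 and Mgll.

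Further genes of fat metabolism were counted in the same fit. Of 65 genes in 4 lists outside the members 60 were tested, and 9 were higher and 11 lower at 1 week over both genotypes, with a median change of 0.09. Over all genes 15.3% were higher and 13.9% lower, so the counts are near that background, and the genes below are given as values. Of 16 peroxisomal genes 2 rose, Scp2 (0.47 ± 0.11), a lipid carrier, and Pex11a (0.38 ± 0.10), a peroxisome division protein, and 3 fell, led by the thioesterase Acot4 (-0.91 ± 0.15) and Hacl1 (-0.45 ± 0.11), of α-oxidation. Of 14 other mitochondrial genes Acss1 (1.19 ± 0.16), the acetyl-CoA synthetase, and Acsf3 (0.42 ± 0.09), the malonyl-CoA synthetase, rose, and Acot11 (-1.42 ± 0.08), a thioesterase, and Hsd17b10 (-0.31 ± 0.09), a hydroxyacyl-CoA dehydrogenase, fell. Other thioesterases of these lists did not pass, with changes of 0.22 for Acot7, 0.13 for Acot8 and -0.19 for Acot9.

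Of 12 uptake and activation genes 3 rose, led by Gpihbp1 (0.73 ± 0.14), which anchors lipoprotein lipase to the vessel wall, and Slc27a3 (0.62 ± 0.13), and 2 fell, Acsl3 (-2.52 ± 0.59) and Acsl4 (-0.53 ± 0.11), acyl-CoA synthetases. Acsl3 stood at -1.22, -0.99, -1.32 and -4.40 on arrays B, C, A and D, against 0.45 and 0.55 in KI and 0.63 and 0.52 in WT at birth. It was lower on all 1-week arrays, and array D was lower again. Of 18 synthesis and storage genes 2 rose, Gpam (0.91 ± 0.10), of glycerolipid synthesis, and Cidea (0.56 ± 0.10), a droplet protein also counted among the adipocyte markers, and 4 fell, led by the desaturase Scd2 (-1.31 ± 0.11) and the fatty acid synthase Fasn (-0.72 ± 0.10). Acaca, the carboxylase that feeds Fasn, was among the 4 at -0.67 ± 0.09.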

How the data were processed

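The members and gene lists were chosen with earlier results of these data known. Total RNA of ventricle was labelled with Cy3 and hybridised to 8 one-colour Agilent arrays (1 slide, 1 scan). The scanner files deposited by the authors give each spot's processed signal as an intensity on a linear scale, background-corrected within the array by Feature Extraction 11.0.1.1 per the file headers (9.1 per the submitters' processing notes) and not normalized between arrays. The authors' deposited value table holds the same intensity per probe. Flags in the deposited files (other) are coded 0 and 1 per the file headers. Each value-table column equalled 1 scanner file at a relative tolerance of 0.0001, and 3 of the 4 columns at 1 week equalled another sample's file, hence the 2 records.

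Spots of a probe were averaged without outliers (59305 non-control spots, 56605 probes, 300 with several spots, 15 dropped), and 32988 probes were named through RefSeq accessions (GRCm38.p6). Intensity was log2 transformed, less the array's 75th percentile. A gene was tested where its brightest probe passed the scanner's background test in every array of any group (15744 genes with the value-table names, 15757 with the scanner-file names). Of the members 26 had 1 probe. A limma 3.58.1 model (R 4.3.3; lmFit, then eBayes) gave each group its mean over the 8 arrays, with Benjamini-Hochberg adjustment over all genes and a threshold of 0.05; values after ± are standard errors. The number of arrays limits the precision: on simulated data the age comparison found 89 of 100 planted 2-fold changes and 98 of 100 planted 4-fold ones, with 17 false calls in 15744 genes, and KI against WT at birth found 60 and 96, with 14. The simulated noise was independent between genes, with no deviation shared across an array, and far fewer genes were changed than were called with age. The rates in the real data may therefore differ. With 2 arrays against 2 no exact permutation test can pass the threshold.

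Values on every array are given, by rule, for the member of each role list with the largest change with age and for those that fell past the threshold, for Cpt1a and Cpt1b, and for the 4 members in each direction with the smallest p between genotypes at each age; Acadm was added after its values were seen. Of further lists up to 2 genes in each direction are named; Acaca was named after its value was seen. Same-numbered replicates did not deviate together in all pairs (correlations of -0.23 to 0.37 over 14461 genes), so numbers were not taken as pairs. Alternatives were the scanner-file names, normexp background correction (offset 50, on median spot signal), quantile and array-median scaling, the filter on dim probes, the mean of all probes, a replicate block, only the arrays compared, and each array left out.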

Additional observations from a re-analysis of the deposited data

How the results depend on the processing

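The 0 calls between genotypes and for the age by genotype difference held for the members under every alternative run. Members higher and lower at 1 week over both genotypes were 9 and 4, against 4 higher with array-median scaling, 4 and 2 with the scanner-file names without array A, and 2 lower with those names without array B; leaving out each array with the value-table names gave 4 to 9 higher and 2 to 5 lower. In WT the 7 higher became 3 with the scanner-file names or the mean of all probes, 1 with array-median scaling, 2 without the filter, 0 with only the arrays compared, 0, 0, 3 and 3 with the scanner-file names without array A, B, C or D, and 4 with those names and normexp (0 to 4 with an array left out). The 2 lower became 1 with quantile scaling, no filter, the mean of all probes, the replicate block, only the arrays compared, and the scanner-file names without A or B (1 to 4 with an array left out). In KI the 1 higher became 3 with the scanner-file names or the mean of all probes, 2 with normexp or quantile scaling, 0 with array-median scaling, 2, 2, 5 and 0 with the scanner-file names without A, B, C or D, and 6 with those names and normexp (0 to 1). The 3 lower became 1 with array-median scaling or the scanner-file names without A, B or D, and 5 with those names and normexp (1 to 3). The causes were not tested. With the replicate number as a block, members over both genotypes were 9 higher and 3 lower, in WT 5 (without Acadvl and Ucp3) and 1, and in KI 1 and 3 as before; the numbers may not mark pairs. The 43 tested members were well above background on all 8 arrays, and Acsl6 was below background on all arrays. Acad12, the dimmest tested member, spread more between arrays than most. Its standard deviation was 0.52 at 1 week and 0.31 at birth, against member medians of 0.19 and 0.12.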
